A study of Gasterosteus aculeatus with 31 samples.

Results

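The regions described here are the ATAC-seq peaks on small unplaced scaffolds, the stretches of the threespine stickleback (Gasterosteus aculeatus) genome that the assembly used for the peak table leaves off its 21 linkage groups. A peak was taken when the name of its sequence starts with scaffold_ and that scaffold holds fewer than 20 peaks. The rule gave 1710 peaks on 588 scaffolds, or 1.67% of the 102149 peaks in the table. They are set against 89261 peaks on the 20 linkage groups other than groupXIX, with 6787 peaks on 79 larger scaffolds as a second comparison. The 4391 peaks of groupXIX, the sex chromosome of this species, were kept apart because males are XY and females XX.

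A linkage group is a sequence ordered along a chromosome. An assembly keeps a piece as a separate scaffold when it cannot be ordered that way, which is common for repeats, for near-identical copies and for sequence that is not shared by all individuals. ATAC-seq reports where the Tn5 transposase can enter DNA, so a peak marks open chromatin such as a promoter or an enhancer. Its count also depends on how many copies of the sequence a fish carries and on how reads are shared among copies, and these counts cannot tell openness from copies. Nor can a smaller number of cells with an open site be told from a site less open in each cell.

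The 31 libraries came from the left or right side of the brain of juvenile fish, 1 library a fish, all aged 6 to 8 months and all killed an hour after a moving model of a sculpin, a predatory fish, had passed them in an open arena. Father-reared fish (Day 10 in the labels; 8 males and 8 females) had been tended by their father, a wild-caught fish from Putah Creek, and orphaned fish (Day 0; 7 males and 8 females) had been reared by hand. No strain, transgene or drug separates the groups. Brain side was not balanced between them. Left and right sides numbered 8 and 8 in father-reared fish, 5 and 10 in orphaned fish, 5 and 10 in males and 8 and 8 in females. Fish whose identifiers share their leading number were read as siblings, for 8 families under father care and 8 orphaned ones. Of the 16, 15 hold a brother and a sister. The labels speak of half-sib families without listing them, so how these siblings are related, and whether families share a parent, is not known. Permutations over families treat the 16 as independent. Total counts ran from 2857578 to 10540612 per library (median 4424554), and the median peak had 20 to 73 counts. Peaks are named by scaffold, start and stop as in the deposited table (genome build: not given in the sources used here). No sequence is therefore shown and no gene is assigned, and the tissue label could not be checked against marker genes.

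Most of these scaffolds were minor in the peak table. Of the 588, 276 held a single peak, 127 held 2 and 34 held 10 or more. The last peak of a scaffold ended at a median coordinate of 6661.5, though the highest was 468943, so some scaffolds with few peaks were long. A start below 1, which places part of the peak window before the first base, was listed for 27 members on 27 scaffolds, down to -172, for 4 peaks on larger scaffolds and for no peak on a linkage group. At the limit of the rule, scaffold_240 with 19 peaks had a median peak strength of 8.49 CPM (counts scaled to a common library total) and scaffold_141, scaffold_218 and scaffold_235 with 18 peaks had 8.83, 7.15 and 7.68 CPM. Just outside it, scaffold_197 and scaffold_216 with 20 peaks had 6.28 and 10.1 CPM.

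The peaks on small scaffolds were on the whole weaker than those on linkage groups, with a few of the strongest peaks of the table among them. Averaged over all libraries, the median member had 6.17 CPM and the interquartile range was 2.57 to 9.06 CPM. On linkage groups other than groupXIX the median was 7.22 CPM. The difference was in the weak tail: 21.2% of members averaged under 2 CPM, against 3.23% on larger scaffolds and 1.12% on linkage groups. At the strong end, 147 members (8.60%) reached 20 CPM, against 7.80% on linkage groups. Every library held at least 1 read at 1420 members (83.0%) and at 99.2% of linkage group peaks.

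Peaks were stronger on scaffolds that held more of them. On scaffolds with 1 peak the median was 3.37 CPM and 38.0% lay under 2 CPM. The medians were 5.64 CPM with 2 peaks, 5.20 CPM with 3 or 4, 6.52 CPM with 5 to 9 and 7.26 CPM with 10 to 19. In the last class, 7.35% lay under 2 CPM. The filter on low counts removed 313 members (18.3%), against 0.891% of the linkage group peaks, which left 1397 members for the tests by sex and care.

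**Figure D1:**
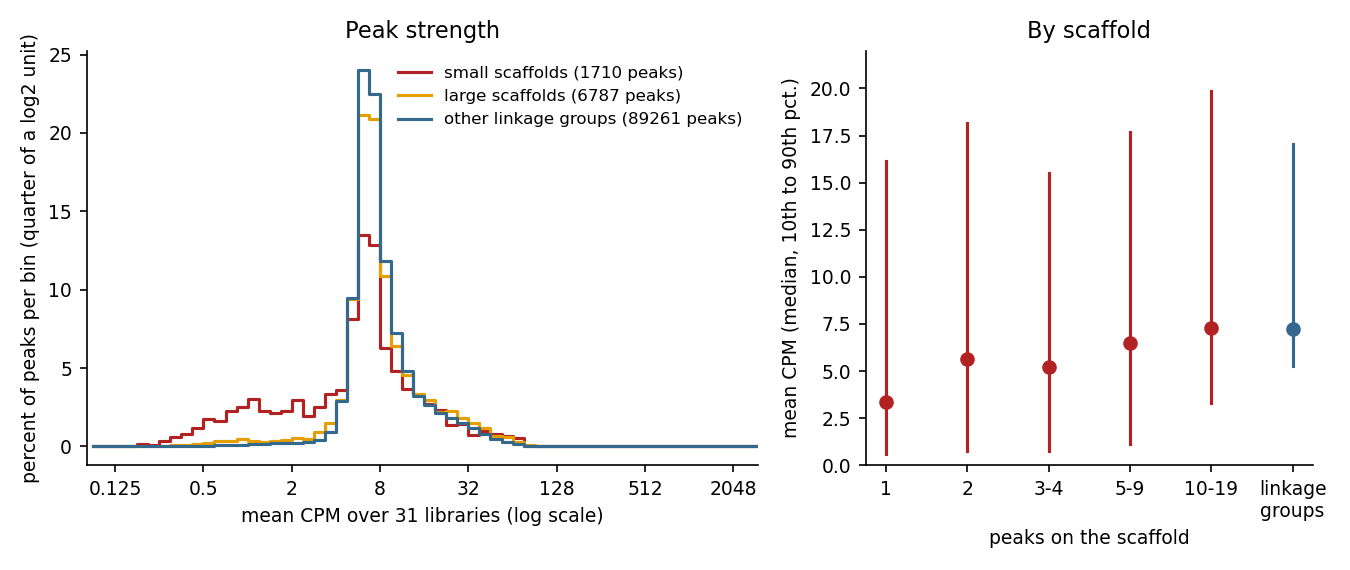
The left panel plots the percent of peaks per 0.25 of a log2 unit against mean CPM over 31 libraries (log scale) for small scaffolds, larger scaffolds and the other linkage groups. Small scaffolds have a second shoulder below 2 CPM that holds 21.2% of their peaks. The right panel gives the median (dot) and the 10th to 90th percentile (line) of mean CPM by number of peaks on the scaffold, with the linkage groups at the right.

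The strongest peak of the whole table was a member, scaffold_662 4366 to 4766, the single peak of its scaffold. It took 5762 to 22754 reads per library, or 0.167 to 0.390% of all counts. Father-reared fish ranged from 1640 to 3997 CPM (median 2474) and orphaned fish from 1941 to 3080 CPM (median 2164), so the groups overlapped widely (2525 ± 566 CPM, SD, n = 16, against 2322 ± 374 CPM, n = 15; edgeR adjusted p = 0.88). The next strongest member, scaffold_835 1406 to 1806, ranked 6th in the table with a mean of 183 CPM, and single fish lay anywhere between 38.5 and 407 CPM. Then came scaffold_1220 2121 to 2521 with a mean of 137 CPM and a range over fish of 52.3 to 322 CPM. The peak at scaffold_515 2631 to 3031 averaged 110 CPM (21.4 to 176 CPM) and that at scaffold_606 8418 to 8818 averaged 92.0 CPM (45.6 to 166 CPM). None of the 5 strongest passed the test of sex or of care.

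The comparison of strength depended on the summary used. The mean over members was 10.2 ± 0.394 CPM per library (SD, n = 16 families, siblings averaged), against 9.77 ± 0.278 CPM over linkage group peaks. The mean log2 ratio was 0.06 (SD 0.07) and was above 0 in 21 of 31 fish (two-sided exact sign-flip permutation over families, p = 0.0029, adjusted p over 5 library measures = 0.00483). Without scaffold_662 4366 the log2 ratio was -0.16 and with medians in place of means it was -0.31, each with an exact permutation p of 3.05e-05, which no set of 16 families can go below. Against larger scaffolds it was -0.05 (exact permutation p = 0.00491).

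The share of the library that fell on small scaffolds did not differ by sex or by care beyond the spread between families. It was 1.68 to 2.04% of the counts off groupXIX. The share was 1.81% ± 0.102 in brothers and 1.80% ± 0.0897 in sisters (SD, n = 15 families), a difference of 0.0111 percentage points with the brother higher in 9 of 15 families (two-sided exact sign-flip permutation p = 0.675, adjusted p = 0.813). It was 1.804% ± 0.0775 in father-reared and 1.814% ± 0.0914 in orphaned families (SD, n = 8 and 8), a difference of -0.0100 percentage points (exact permutation p = 0.813, adjusted p = 0.813). Library numbers were also split into 3 stretches of up to 11 as candidate batches, since the labels do not say which libraries were made together. In the 3 stretches the male minus female difference was 0.00474, 0.100 and -0.0504 percentage points and the father-reared minus orphaned difference 0.0481, -0.0119 and -0.0108, so neither kept its sign.

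Presence or absence of a peak between fish was more common on small scaffolds. A peak was taken as present in a fish at 2 CPM or more and as at background under 0.25 CPM. Peaks with a mean of at least 2 CPM were examined, and a peak at background in at least 2 fish and present in at least 2 was counted as present or absent. By this rule 21 of 1347 members (1.56%), on 16 scaffolds, were present or absent, against 4 of 6568 peaks on larger scaffolds (0.0609%) and 100 of 88260 on linkage groups (0.113%). In the average family 0.304% ± 0.156 of the members were at background in a fish, against 0.0186% ± 0.00504 of linkage group peaks (SD, n = 16). The difference of 0.285 percentage points was positive in 31 of 31 fish (exact sign-flip permutation over families, two-sided, p = 3.05e-05, a floor set by 16 families, and adjusted p = 7.63e-05). A single member at background is 0.0742%, above the highest linkage group value of any fish (0.0351%), so 1 such member makes the sign positive. All fish are scored on the same peaks. This p thus reflects variation between families and not between peaks, as for the other measures set against linkage groups. A fish had 1 to 9 such members at background (median 4), and the fish with 9 was orphaned replicate 7, a female.

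Weak peaks reach background more easily, so the same count was made within bands of strength. Between 2 and 5 CPM, 5.45% of members were present or absent, against 1.26% of linkage group peaks. Between 5 and 10 CPM the shares were 0.870% of members and 0.0360% of linkage group peaks. Between 10 and 20 CPM, 0 of 235 members and 4 of 14346 linkage group peaks (0.0279%) met the rule. At 20 CPM or more it was 0 of 147 members and 1 of 6961 linkage group peaks (0.0144%). With so few members, these 2 bands cannot show whether the shares differ. With a mean of at least 4 CPM required, 11 of 1163 members (0.946%) and 51 of 86586 linkage group peaks (0.0589%) remained.

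**Figure D2:**
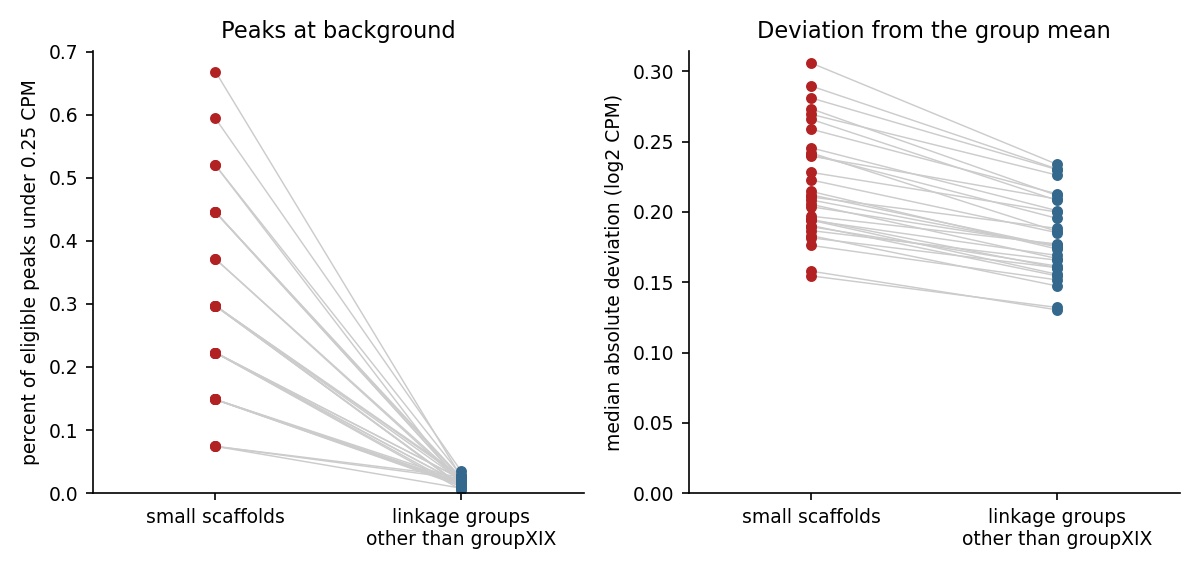
Each line joins the value of 1 fish on small scaffolds (left) to that on linkage groups other than groupXIX (right). The left panel gives the percent of examined peaks under 0.25 CPM and the right panel the median absolute deviation of log2 CPM from the mean of the fish's care-by-sex group. All 31 fish lie higher on small scaffolds in both panels.

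The clearest case was scaffold_296 2221 to 2621, on a scaffold with 13 peaks. It had no read in 14 fish, between 0.267 and 0.968 CPM in 5, and 9.87 to 17.0 CPM in the other 12, with no fish in between. Both states occurred in both care groups and sexes, since 7 father-reared and 7 orphaned fish, or 7 males and 7 females, were at background. In 4 families brother and sister were both at background.

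At scaffold_709 9493 to 9893, 11 fish were at background and 16 were present, with a highest value of 9.94 CPM in father-reared replicate 1. At scaffold_193 51590 to 51990, 9 fish were at background and 20 present, up to 19.3 CPM in orphaned replicate 9. At scaffold_185 53123 to 53523, 8 fish were at background and 19 present. The last 2 peaks lie on different scaffolds, yet 6 fish were at background at both, and their log2 CPM had a correlation of 0.921 over the 31 fish. This pair shared the most fish at background among pairs of present-or-absent members on different scaffolds and is given as a description.

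The other members with the most even split were less extreme. At scaffold_278 47872 to 48272, 6 fish were at background and 14 present. Both peaks of scaffold_1343 were in the list: at 1576 to 1976, 5 fish were at background and 25 present, and at 3802 to 4202, 4 were at background and 23 present. All 4 of these fish were among the 5, namely both siblings of the family of father-reared replicates 1 and 2, father-reared replicate 11 and orphaned replicate 15, and the correlation of the 2 peaks was 0.913. At scaffold_335 10379 to 10779, the 4 fish at background were all females and 22 fish were present. Females alone were at background also at scaffold_179 109023 (4 fish), scaffold_224 205735 (3) and scaffold_1332 3935 (2), and males alone at no present-or-absent member. The peaks at scaffold_335 and scaffold_179 passed the test of sex given below, so the present-or-absent members include sex differences.

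Scaffold_185 held 5 of the 21 present-or-absent members among its 16 peaks. At scaffold_185 6656 to 7056, father-reared replicates 5 and 6, which are brother and sister, and orphaned replicate 7 had no read, while the 28 others had 3.18 to 18.8 CPM. The same 3 fish were at background at scaffold_185 33468 to 33868 and at scaffold_417 16988 to 17388, whose log2 CPM had a correlation of 0.936. Over all pairs of peaks on scaffold_185 the correlation had a median of 0.322 (lowest -0.397, highest 0.930) and was above 0.5 in 29 of 120 pairs. These correlations all run over the same 31 libraries, which include siblings.

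**Figure D3:**
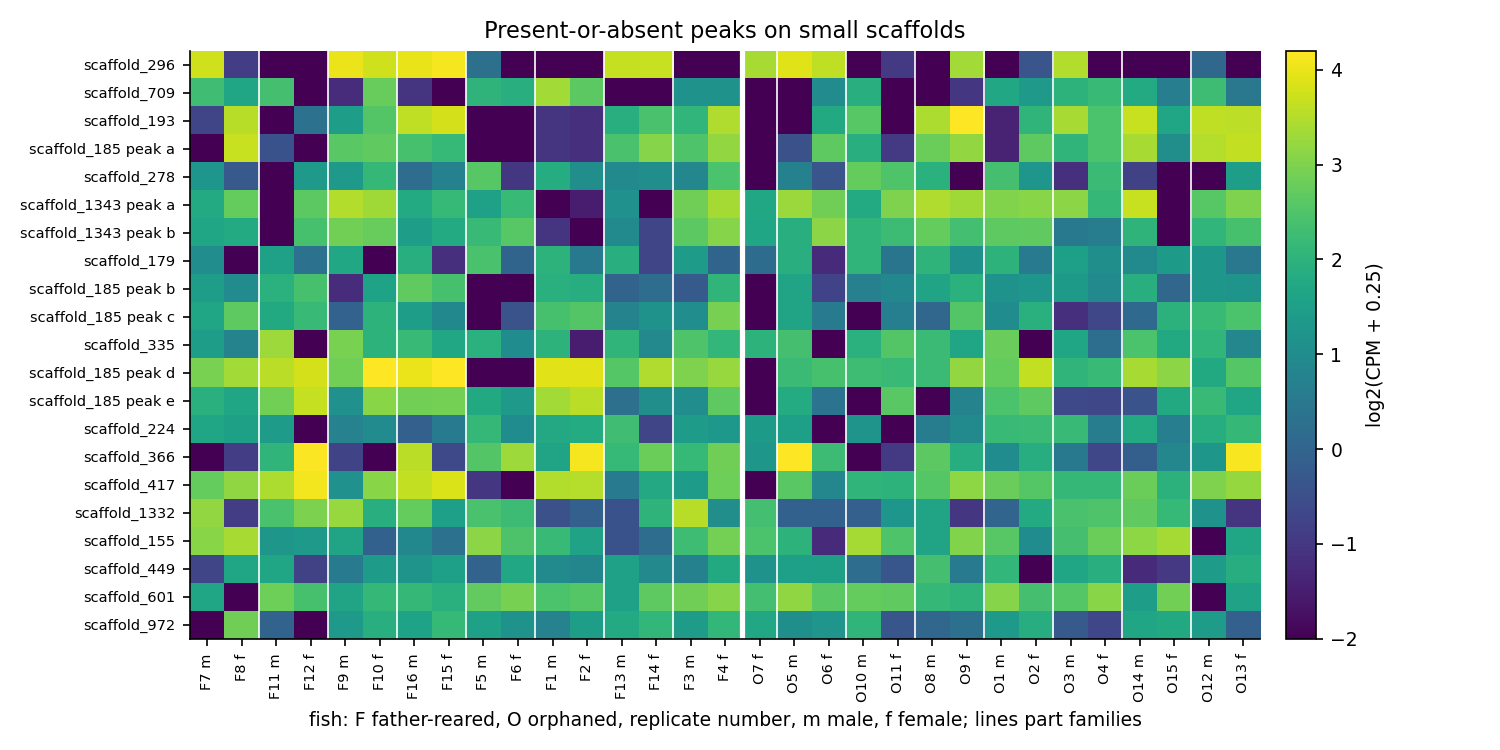
Each row is 1 of the 21 present-or-absent members and each column 1 of 31 fish, father-reared left of orphaned, with white lines between families; colour gives log2(CPM + 0.25). At scaffold_296, 14 fish are at the lowest colour and 12 are bright. The pair of peaks at scaffold_193 and scaffold_185 (peak a) shares 6 dark fish.

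Siblings had the same state in a larger share of comparisons than other fish. Where both of 2 fish could be called present or at background, brother and sister had the same state in 164 of 201 comparisons (81.6%), against 958 of 1396 (68.6%) for a male and a female of different families in the same care group. Without the peaks of scaffold_185 the shares were 78.7% for siblings and 68.2% for other pairs. On linkage groups, present-or-absent peaks gave 83.2% for siblings and 71.8% for other pairs. No test was run on these shares. Siblings also have adjacent or nearly adjacent library numbers, so a shared family cannot be told from a shared place in that order.

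The spread of log2 CPM between fish was also larger, with the present-or-absent peaks and without them. The median absolute deviation of log2 CPM from the mean of a fish's care-by-sex group was 0.22 ± 0.03 over members and 0.18 ± 0.02 over linkage group peaks (SD, n = 16 families). The difference of 0.0373 (SD 0.0100) was positive in 31 of 31 fish (exact sign-flip permutation over families, two-sided, p = 3.05e-05, again at its floor, and adjusted p = 7.63e-05). With present-or-absent peaks left out of both sets, an alternative added after seeing the data, the difference was 0.0345 (SD 0.00941; exact permutation p = 3.05e-05; positive in 31 of 31 fish). The SD of log2 CPM over fish exceeded 1 at 36 of 1347 members (2.67%), of which 20 were present-or-absent, and at 125 of 88260 linkage group peaks (0.142%), of which 86 were. Among the remaining peaks it exceeded 1 at 16 of 1326 members (1.21%) and at 39 of 88160 linkage group peaks (0.0442%). On larger scaffolds, present-or-absent peaks included, it exceeded 1 at 18 of 6568 peaks (0.274%). The gap was present in each band of strength, with median SDs of 0.50 for members and 0.36 for linkage group peaks between 2 and 5 CPM, and of 0.31 for members and 0.28 for linkage group peaks at 20 CPM or more. Across the 1347 members, the deviations of brother and sister had a mean correlation of 0.220 (SD 0.165, positive in 13 of 15 pairs). The mean for 105 pairs of different families was -0.0313. Across linkage group peaks these means were 0.0602 and -0.00840, and across peaks of larger scaffolds 0.0962 and -0.0135. Deviations from group means cancel within a group, which largely fixes the mean of the other pairs once that of siblings is known. The other pairs are therefore no separate baseline. As siblings are also neighbours in library number, family and library order cannot be told apart in these correlations. Without the present-or-absent members the sibling mean was 0.186. Adjacent members of a scaffold had a median correlation over fish of 0.123 and 11.1% of 892 pairs lay above 0.5, against 0.0687 and 4.98% of 88240 pairs on linkage groups. Larger scaffolds lay between, at 0.0822 and 6.69% of 6489 pairs.

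Between males and females, more members were higher than lower in males. Of the 1397 members tested, 22 passed (edgeR quasi-likelihood test, Benjamini-Hochberg adjusted over all 100808 peaks, threshold 0.05), or 1.57%, against 2.32% of all peaks tested, most of which lie on groupXIX. By direction, 19 members on 18 scaffolds (1.36%) were higher in males, against 0.239% of all peaks and 0.115% of those on the other linkage groups. By the same test 3 members on 2 scaffolds (0.215%) were lower in males, against 2.08% of all peaks and 0.017% on the other linkage groups. The lower count was 5 without orphaned replicate 10, and with the inferred family as a block it was 8, beside 24 higher. On larger scaffolds 0.394% were higher and 0.0455% lower. No test was run on the difference between these shares. The low-count filter kept 5 of the 19 higher members through males alone and 1 of the 3 lower members through females alone. The difference reached 2-fold in 7 of the 19 higher and 1 of the 3 lower members. All 22 kept their sign in each of the 3 stretches of library numbers and in both brain sides. The 22 were called on these same libraries, so the kept sign is no separate test.

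Every male lay above every female at 3 members (0.215% of those tested, against 0.0188% of all peaks). Of these, scaffold_315 7919 and scaffold_241 49848 passed the low-count filter through males alone, so this share depends on the filter. The largest difference was at scaffold_315 7919 to 8319, where the 15 males had 2.19 to 6.53 CPM (median 3.31) and the 16 females 0 to 1.44 CPM (median 0.311). The means were 3.59 ± 1.03 CPM in males and 0.438 ± 0.398 CPM in females, for which edgeR gave a log2 difference of 2.92 with SE 0.27 and adjusted p = 8.36e-13, on 0 to 27 reads per library. At scaffold_241 49848 to 50248, the only peak of its scaffold, males had 1.61 to 5.38 CPM (median 3.29) and females 0 to 1.44 CPM (median 0.734). The log2 difference was 2.22 (edgeR, SE 0.27, adjusted p = 1.38e-09). At the stronger peak scaffold_134 1528 to 1928, males had 11.0 to 19.4 CPM (median 16.5) and females 5.30 to 10.8 CPM (median 7.74), so the groups were nearly adjacent. Its log2 difference was 0.96 (edgeR, SE 0.09, adjusted p = 6.4e-12).

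The other members among the 10 highest overlapped between the sexes to different degrees. At scaffold_167 95316 to 95716, males had 10.7 ± 2.33 CPM (6.39 to 14.0) and females 4.31 ± 1.28 CPM (1.99 to 6.84), with the brother above the sister in 15 of 15 families (log2 1.33, SE 0.12, edgeR adjusted p = 4.73e-13). At scaffold_179 109023 to 109423, males had 1.68 to 5.08 CPM (median 3.43) and females 0 to 2.37 CPM (median 0.948), a log2 difference of 1.72 (SE 0.25). At scaffold_909 6813 to 7213, males had 2.13 to 11.8 CPM (median 7.55) and females 0.331 to 8.58 CPM (median 2.12), a log2 difference of 1.40 (SE 0.22). Its log2 difference within the stretches was uneven, at 0.38, 1.97 and 1.89.

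At scaffold_335 10379 to 10779, males had 2.51 to 9.54 CPM (median 4.36), so no male was at background, and females 0 to 5.61 CPM (median 1.71; log2 1.31, SE 0.27, edgeR adjusted p = 0.000506). DESeq2 did not call this peak (adjusted p = 0.106), nor scaffold_1232 5719 or scaffold_1910 78, and it called the other 19 of the 22. Scaffold_1906 9 to 409 (log2 1.09), scaffold_221 34226 to 34626 (0.95) and scaffold_849 5354 to 5754 (0.90) completed the 10, and at scaffold_849 the brother was above the sister in 15 of 15 families. A second peak on scaffold_221, 33084 to 33484, averaged 6.05 ± 1.28 CPM over males and 3.33 ± 1.04 CPM over females (log2 0.88). The remaining members higher in males were scaffold_1427 3914, scaffold_1354 1776, scaffold_469 -163, scaffold_298 19487, scaffold_1910 78, scaffold_956 3095, scaffold_1232 5719 and scaffold_198 16730, with log2 differences between 0.43 and 0.89.

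Of the 3 peaks lower in males, 2 shared a scaffold. At scaffold_858 5856 to 6256, males had 1.60 to 4.41 CPM (median 2.02) and females 3.30 to 8.90 CPM (median 5.53), with the brother below the sister in 15 of 15 families (log2 -1.29, SE 0.15, edgeR adjusted p = 8.9e-10). The other peak of this scaffold, 6578 to 6978, had 3.37 ± 1.36 CPM in males and 6.44 ± 1.74 CPM in females (log2 -0.88, SE 0.16, edgeR adjusted p = 2.57e-05). Both peaks of scaffold_858 were thus lower in males. At scaffold_654 5036 to 5436 males had 3.72 ± 0.742 CPM and females 5.37 ± 1.55 CPM (log2 -0.56, SE 0.13, edgeR adjusted p = 0.00368).

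**Figure D4:**
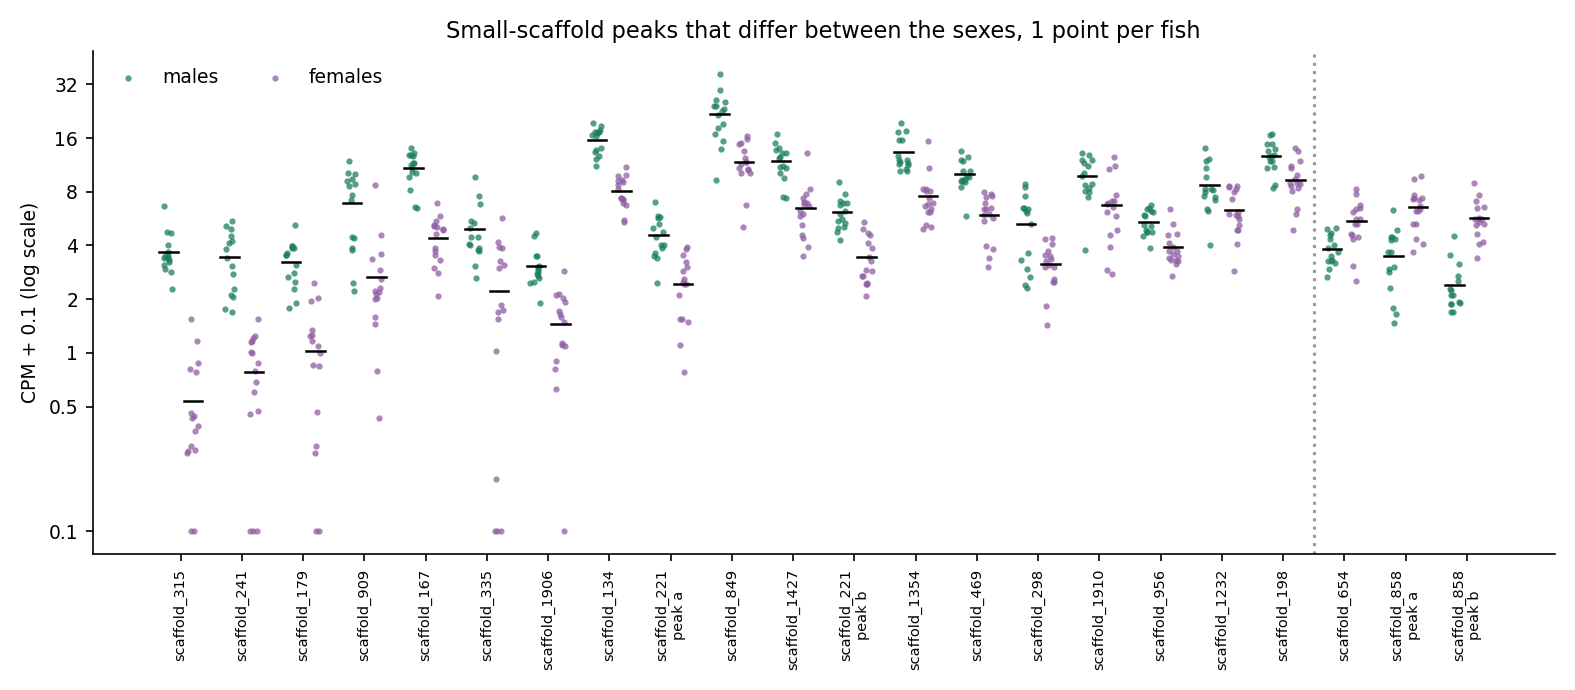
CPM + 0.1 (log scale) of each fish at the 22 members that passed the test of sex, males left of females for each peak, with black lines at group means. The 19 peaks left of the dotted line are higher in males and the 3 right of it lower. At scaffold_315 and scaffold_241 the highest female stands at 1.44 CPM, below the lowest male.

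The low-count filter bears on the weakest of these. It kept a peak with at least 2.26 CPM in 7 libraries, and 5 of the 22 (scaffold_315, scaffold_241, scaffold_179, scaffold_1906 and scaffold_909) reached that through males alone and scaffold_858 5856 through females alone. Over all tested members, 27 were kept through males alone and 26 through females alone. Without the filter 30 members passed, all 22 among them. The call at scaffold_1232 5719 was lost without father-reared replicate 5 (edgeR adjusted p = 0.084), orphaned replicate 1 (0.0968) or orphaned replicate 10 (0.0589), and was kept without any other single library. With groupXIX left out of the fit 16 of the 22 passed, and scaffold_654 5036, scaffold_1232, scaffold_1910, scaffold_198, scaffold_298 and scaffold_956 did not. The main adjustment also covers groupXIX, where 49.9% of the peaks tested passed. Its threshold is therefore not an error rate among the members alone.

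A further 8 members did not pass with all libraries but passed in at least 1 fit without a single library. Scaffold_489 1499 to 1899 (log2 -0.85, edgeR adjusted p = 0.0535 with all libraries) passed without any 1 of 9 libraries. The others were scaffold_1063 4679, lower in males, and scaffold_224 12343, scaffold_227 8631, scaffold_251 48038, scaffold_302 2949, scaffold_515 -75 and scaffold_632 8726, higher in males. Their edgeR adjusted p values with all libraries ran from 0.0715 to 0.515.

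Of the 20 scaffolds with a call, 10 held a single peak. The other 10 held 75 peaks, of which 53 were tested and 12 called. Beside the called peak of scaffold_167, the 11 other peaks tested there had log2 differences of -0.16 to 0.34. On scaffold_315 the other tested peak stood at -0.02, on scaffold_179 the other 2 at -0.20 and -0.02, and on scaffold_134 the other 3 between -0.06 and 0.21. On scaffold_221 the other 8 lay between -0.16 and 0.17. On scaffold_315 and scaffold_179 the peaks too weak to be tested all had a higher mean in males. On scaffold_315 male and female means were 1.40 and 0.158 CPM at 8468, 0.999 and 0.0811 CPM at 9757 and 0.920 and 0.124 CPM at 10659. On scaffold_179 they were 1.32 and 0.331 CPM at 109982, 1.72 and 0.539 CPM at 110615 and 0.702 and 0.609 CPM at 114730. The untested peaks of scaffold_134, scaffold_198 and scaffold_298 went both ways, some with a higher mean in females. Some neighbours that did not pass were further from 0 on the side of the call. The other tested peak of scaffold_1354 stood at 0.82, that of scaffold_654 at -0.34, and on scaffold_298 the highest of 5 stood at 0.36. On scaffold_198 the highest of the other 9, at 0.65, was above the called peak (0.43).

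Sex was also tested on counts summed over each scaffold. The sums of 481 small scaffolds passed the filter and were tested with the sums of larger scaffolds and of 1 Mb windows of the linkage groups. By sex, 14 small scaffolds passed (2.91%, against 3.19% of all 973 units), 12 higher and 2 lower in males. Apart from these 14 and 1 larger scaffold, every unit called was a window of groupXIX. Of the 14, 8 hold a single peak, so that their sum repeats the value of that peak. With the same edgeR test 0 of 392 windows off groupXIX passed (6 at an unadjusted p under 0.05), while 1 of 79 larger scaffolds did. A window held a median of 228.5 peaks, among which a difference at 1 peak is diluted, so these shares do not compare like units. Those highest in males were scaffold_241 (log2 2.21), scaffold_909 (1.37), scaffold_335 (1.24), scaffold_1906 (1.07) and scaffold_315 (1.04). Of these, the single peaks of scaffold_241, scaffold_909 and scaffold_1906 passed the low-count filter through males alone. The share of scaffolds called thus depends on the filter. Lower in males were scaffold_858, with males at 5.66 ± 1.60 CPM and females at 12.2 ± 3.09 CPM (log2 -1.10, SE 0.15, edgeR adjusted p = 8.31e-07), and scaffold_654 (log2 -0.47, SE 0.14, edgeR adjusted p = 0.0458). The call for scaffold_654 was lost in 21 of the 31 fits that left out a library. The 3 largest sums, of scaffold_662, scaffold_835 and scaffold_240, did not pass the test of sex.

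Care by the father gave no call among the members. The edgeR test of father-reared against orphaned fish called 0 of 1397 members, as it called 0% of all peaks tested. At an unadjusted p under 0.05 there were 118 members (8.45%, against 7.24% of all peaks), with 54 of them higher in father-reared fish and 64 lower; edgeR's lowest adjusted p was 0.52. DESeq2 also called 0, had 117 at that unadjusted level and reached 0.51 as its lowest adjusted p. The median log2 difference was -0.01 and the span from the 5th to the 95th percentile was -0.28 to 0.24. The 95% interval of the ratio lay within 1.5-fold for 87.3% of members, against 98.9% of peaks on linkage groups other than groupXIX, and within 2-fold for 97.7% of members. These intervals count each fish on its own, while the care group was set per family.

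**Figure D5:**
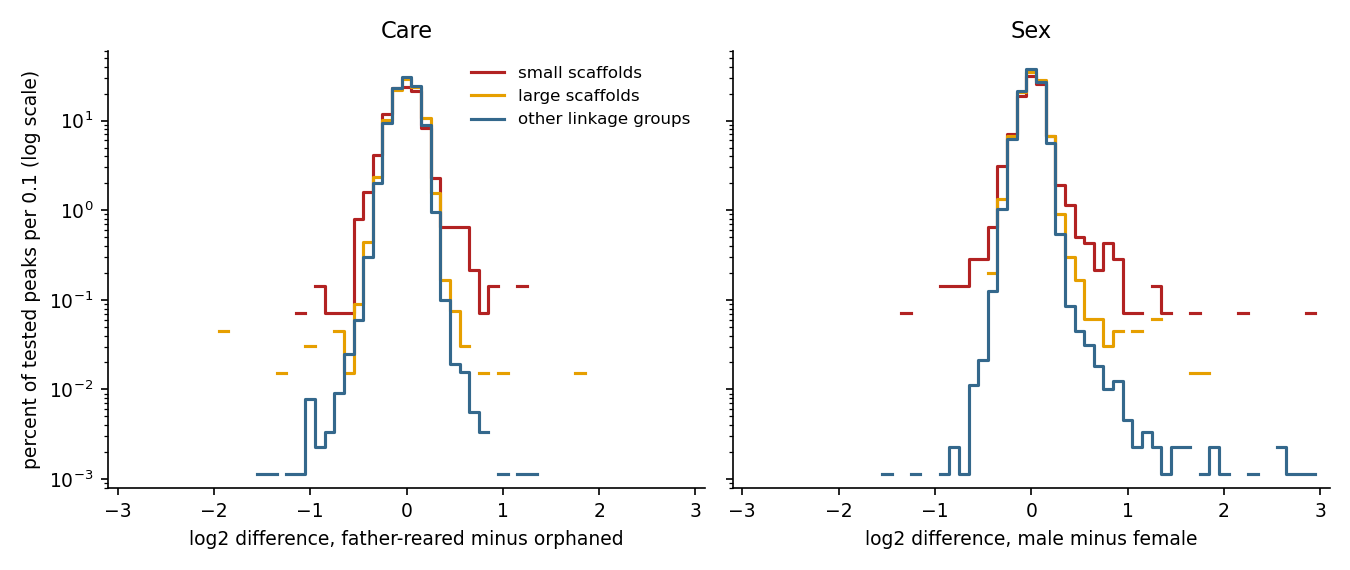
Percent of tested peaks per 0.1 of log2 difference (log scale) for care (father-reared minus orphaned, left) and sex (male minus female, right), on small scaffolds, larger scaffolds and the other linkage groups. A larger percent of small-scaffold peaks lies in the tails. Differences of 2-fold or more make up 0.215% for care and 0.573% for sex, against 0.0102% and 0.0339% on linkage groups. For care, the most extreme differences lie on larger scaffolds. For sex, the right tail of small scaffolds reaches 2.92 and the left -1.29, and linkage groups extend further left.

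The 5 members with the lowest p for care did not pass. At scaffold_185 7570 to 7970, father-reared fish had 3.20 to 12.1 CPM (median 5.96) and orphaned fish 0 to 7.81 CPM (median 3.13), which overlapped between 3.20 and 7.81 CPM (log2 0.93, SE 0.21, edgeR adjusted p = 0.52). At scaffold_398 18322 to 18722, father-reared fish had 6.56 to 12.6 CPM (median 8.72) and orphaned fish 7.05 to 19.9 CPM (median 14.2), a log2 difference of -0.53 (SE 0.12). At scaffold_212 42923 to 43323 father-reared fish averaged 19.5 ± 3.53 CPM and orphaned fish 25.8 ± 7.13 CPM (log2 -0.42, SE 0.11).

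The other 2 were scaffold_453 9856 to 10256 (log2 -0.41, SE 0.11) and scaffold_185 49860 to 50260. At scaffold_185 49860, father-reared fish had 0.980 to 12.3 CPM (median 4.85) and orphaned fish 0 to 6.03 CPM (median 1.44; log2 1.23, SE 0.32). Of the 12 peaks tested on scaffold_185, 9 had a positive log2 difference and none passed. Some of these peaks are correlated over the same fish and the scaffold was picked by low p values, so the 9 are not separate results. Over all tested members the median log2 difference was -0.01. The 9 include scaffold_185 6656, where 2 father-reared siblings and an orphaned fish had no read, and whose log2 difference was 0.85 (edgeR adjusted p = 0.69). Summed per scaffold, care also gave 0 calls among 481 small scaffolds (0% of all 973 units), 21 at that unadjusted level and 0.52 as edgeR's lowest adjusted p. The lowest p belonged to scaffold_212 (log2 -0.35), scaffold_709 (0.56) and scaffold_1100 (-0.45).

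Within males, care gave 0 calls among members (0% of all peaks), with 73 members at an unadjusted p under 0.05 (5.23%, against 5.31% of all peaks). DESeq2 gave 0 calls and 59 such members. The lowest p belonged to scaffold_185 7570, where father-reared males averaged 6.35 ± 2.88 CPM (n = 8) and orphaned males 2.78 ± 2.33 CPM (n = 7), for which edgeR gave a log2 difference of 1.21 with SE 0.31 and adjusted p = 0.92. Next were scaffold_497 5432 to 5832, where father-reared males had 3.31 to 7.59 CPM and orphaned males 0.940 to 3.57 CPM (log2 0.98, SE 0.26), and scaffold_709 10575 to 10975 (log2 0.86, SE 0.23). The other 2 were scaffold_398 18322 (-0.52) and scaffold_453 9856 (-0.43).

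Within females, care gave 0 calls among members (0% of all peaks), with 79 at an unadjusted p under 0.05 (5.65%, against 4.63% of all peaks). DESeq2 gave 0 calls and 63 such members. The lowest p belonged to scaffold_1194 1408 to 1808, where father-reared females had 5.38 to 13.2 CPM (median 8.57) and orphaned females 3.97 to 7.99 CPM (median 5.89), for which edgeR gave a log2 difference of 0.57 with SE 0.15 and adjusted p = 0.92. At scaffold_524 9953 to 10353 the log2 difference was 0.55 (SE 0.17), at scaffold_185 49860 it was 1.40 (SE 0.43), at scaffold_185 75980 to 76779 it was 0.85 (SE 0.26) and at scaffold_193 30656 to 31056 it was 1.04 (SE 0.33).

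The test of whether the care difference itself differed between the sexes gave 0 calls (0% of all peaks), with 27 members at an unadjusted p under 0.05 (1.93%, against 3.49% of all peaks). DESeq2 gave 0 calls and 28 such members. Of the 27 by edgeR, the log2 interaction (care difference in males minus that in females) was positive at 21 and negative at 6. At scaffold_1194 1408, father-reared males had 6.50 ± 1.67 CPM (n = 8) and orphaned males 7.73 ± 1.26 CPM (n = 7), while father-reared females had 8.63 ± 2.35 CPM and orphaned females 5.77 ± 1.30 CPM (n = 8 and 8). The log2 interaction was -0.79 (edgeR, SE 0.22, adjusted p = 1.00). The other 4 with the lowest p were scaffold_1347 -65 to 335 (-0.67), scaffold_397 13036 to 13436 (-0.62), scaffold_524 9953 (-0.68) and scaffold_405 18714 to 19114 (0.48). For this contrast the 95% interval lay within 2-fold for 84.3% of members, against 97.7% for care over both sexes.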

How the data were processed

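ATAC-seq was done on 1 brain side of each of 31 fish. The deposited table gives the authors' counts, unscaled whole reads in every peak and fish. Per the submitters' processing notes the tools were DiffBind 3.14.0, MACS2 2.2.5, Bowtie2 2.3.5.1, FastQC 0.11.8, Picard 2.10.1 and SAMtools 1.9. Their settings, the handling of duplicates and of reads with several matches, the Tn5 offset and the build were not given in the sources used here. Each library is 1 fish, and p values of the main edgeR fits measure the spread between fish, with siblings counted separately.

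Members and lists were chosen with earlier results of these data known. Counts were scaled by TMM and filtered with filterByExpr (minimum count 10, 4 care-by-sex groups), and 100808 peaks were tested with edgeR 4.0.16 (R 4.3.3) quasi-likelihood F tests with care and sex as terms, or with 4 group means for care within each sex and the interaction. Benjamini-Hochberg adjustment covered all peaks tested, with 0.05 as the threshold. CPM use TMM-scaled totals and log2 CPM a prior count of 2. Log2 differences are father-reared minus orphaned and male minus female. Library measures were compared by exact permutation over families, inferred from the first number of each fish name. The fits were tested on simulated data. Alternatives were DESeq2 1.42.0, RLE factors, other filters, covariates, a family block (limma 3.58.1), each library or family left out, and other limits for members, background and strength.

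Named peaks follow a rule. For sex they are the 10 highest and 5 lowest log2 differences among called members averaging 1 CPM or more. For each care comparison, where none passed, they are the 5 with the lowest p. The 5 strongest members and the 8 most evenly split present-or-absent members, at most 2 per scaffold, were named, as were the scaffold sums with the 5 highest and 5 lowest sex differences, the 3 lowest p for care and the 3 highest totals. So were members not called with all libraries but called without some library. The other sex calls and the uncalled neighbours of called peaks were named after their values were seen. So were scaffold_185 6656, scaffold_185 33468, scaffold_417 16988, scaffold_224 205735 and scaffold_1332 3935.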

Additional observations from a re-analysis of the deposited data

Results flagged for a closer look

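Within each care-by-sex group of 7 or 8 fish, 52 measures and peaks were searched for a fish far from the rest of its group by Dixon's criterion. Of 208 groups, 17 stood out. For independent, normally distributed values chance alone gives about 1 in 20. Some peaks here were picked for uneven values and the same fish enter every item, so that rate is only a rough guide. None of the 17 was examined for a cause.

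Among library measures, father-reared replicate 7, a male, was highest in its group for the share of counts on small scaffolds (2.04%, next fish 1.86%). It was also highest there for the log2 strength ratio of small scaffolds to linkage groups (0.24, next 0.10). Both measures include the strongest peak of the table, which took 0.390% of all counts in this library, more than in any other. Without that peak its share was 1.639%, below father-reared males replicate 5 (1.643%) and replicate 11 (1.648%). The strength ratio of this fish without that peak was not tested. Orphaned replicate 7, a female, had 0.668% of the examined members at background (next 0.297%), and it is also 1 of the 3 fish without reads at scaffold_185 6656.

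At peaks that passed the test of sex, scaffold_315 7919 had a high father-reared female (replicate 2, 0.775 CPM, next 0.346 CPM) and a high orphaned male (replicate 10, 4.58 CPM, next 3.41 CPM). Scaffold_221 34226 had a low orphaned female (replicate 13, 0.682 CPM, next 2.34 CPM) and scaffold_858 5856 a high orphaned male (replicate 5, 3.05 CPM, next 2.02 CPM). Scaffold_1354 1776 had a high father-reared female (replicate 4, 15.4 CPM, next 8.16 CPM). Scaffold_1427 3914 had a high orphaned female (replicate 9, 13.0 CPM, next 7.63 CPM), scaffold_469 -163 a high orphaned male (replicate 1, 12.4 CPM, next 10.3 CPM) and scaffold_956 3095 a high orphaned female (replicate 15, 6.32 CPM, next 4.01 CPM).

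At peaks named for care, scaffold_453 9856 had a high father-reared female (replicate 8, 12.8 CPM, next 9.27 CPM) and scaffold_405 18714 another (replicate 15, 15.0 CPM, next 11.9 CPM). Scaffold_185 75980 had a low father-reared female (replicate 6, 1.26 CPM, next 11.1 CPM) and a high orphaned male (replicate 14, 13.0 CPM, next 7.49 CPM). Replicate 6 is also among the fish without reads at scaffold_185 6656. Among present-or-absent and strong peaks, scaffold_193 51590 had a high father-reared male (replicate 16, 11.9 CPM, next 3.98 CPM) and scaffold_662 4366 a high orphaned male (replicate 8, 2971 CPM, next 2286 CPM).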

How the results depend on the processing

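The strength ratio, 0.06 on the log2 scale, changed sign with the strongest member left out (-0.16, an alternative added after seeing the data), with medians (-0.31) and against larger scaffolds (-0.0536). The scaffold_662 peak accounts for the first by construction, and for the others the cause was not tested. The excess of members at background stayed positive under all alternatives run (0.195 to 0.336 percentage points), as did the excess spread (0.0234 to 0.0614).

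The 22 sex calls became 14 (11 higher in males) on scaffolds with fewer than 5 peaks, where fewer members are counted, 17 with fewer than 10, 22 with DESeq2 (19 of them shared), 30 without a filter and 16 with groupXIX left out. Over the fits without 1 library they numbered 22 to 26, with 18 to 23 higher and 3 to 5 lower in males (5 without orphaned replicate 10, the cause was not tested). Sums gave 11 to 14, with 10 to 13 higher and 1 to 2 lower. Leaving out a family gave 0.0469 to 0.0614 for the strength ratio, -0.0344 to 0.00814 points for the share by care and 0.00306 to 0.0286 by sex. Care gave 0 calls in every fit run.

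Families are inferred, not labelled. Over members, siblings correlated at a mean of 0.220, positively in 13 of 15 pairs. The mean of the other pairs (-0.0313) is largely fixed by taking deviations from group means. Library numbers of siblings are adjacent or nearly so, and family is therefore confounded with library order. The family block was run only as an alternative, so the main edgeR tests count siblings as separate fish. For care, which was set per family, they thus count more independent units than there were. For sex they leave out the pairing of brother and sister. With family as a fixed replicate block there were 32 sex calls (24 higher, 8 lower), all 22 among them. As a random replicate block, care had 0. Of the members, 18.3% had too few reads to be tested.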
